A study of Bos taurus with 60 samples.

Results

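The miR-2285 family was described across the liver miRNA profiles of 60 steers, as all rows of the count files whose mature miRNA name begins with bta-miR-2285. This rule gave 117 mature miRNAs out of 1030 known bovine miRNAs, counted on 162 of the 1155 pairs of a mature miRNA and a precursor that were listed for all 3 breeds. Residual feed intake (RFI) is the feed an animal eats beyond what its size and growth predict, so low-RFI steers are the efficient ones. The study asked how liver miRNAs differ between efficient and inefficient steers within each breed. The steers were 20 Angus, 20 Charolais and 20 Kinsella Composite (KC, a crossbred beef population), and in each breed the labels placed 6 steers in a low-RFI group, 6 in a high-RFI group and 8 in no RFI group.

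All steers were fed the same barley-based finishing diet and liver was taken after slaughter, with 1 small RNA library per steer. The labels give 23 sire codes, 7 for Angus, 5 for Charolais and 11 for KC, so many steers of a breed were half-sibs. The code of KC low-RFI replicate 3 begins with NA, unlike the other KC codes, and was counted as a sire of its own. The breeds differed in mean slaughter age, so age and breed cannot be told apart here. Steers were placed in an RFI group partly because their miRNA profiles were alike, as the methods state. The RFI groups were thus chosen partly on the kind of values tested. The p-values between RFI groups, permutation tests among them, make no allowance for this choice. The labels do not give the sequencing pool of a library, so its part in any difference was not tested. The 3 counts taken as the smallest reliable level corresponded to between 0.444 and 1.554 CPM (the count scaled to a common library size), since library totals ran from 1930859 to 6751781 counts. This floor reflects counting error alone, because amplified reads do not each stand for a separate molecule. The miRNAs listed as hepatocyte markers, bta-miR-122, bta-miR-192, bta-miR-194 and bta-miR-885, were found in every library. Their summed level ran from 177035 to 338866 CPM over the 60 steers. Most of it was bta-miR-192, at a median of 232956 CPM, while bta-miR-122 had a median of 7793 CPM. The muscle miRNAs bta-miR-206, bta-miR-208a and bta-miR-208b and the neural bta-miR-124a and bta-miR-124b had a median of 0 CPM, while the other muscle and neural miRNAs listed had medians of 34.5 CPM (bta-miR-133a), 1.97 (bta-miR-1), 1.19 (bta-miR-499), 0.886 (bta-miR-133b) and 7.24 (bta-miR-9-5p).

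A miRNA guides an Argonaute protein to messenger RNAs, mainly by pairing of its seed, bases 2 to 8 from its 5′ end. Members that share a seed are predicted to recognise overlapping sets of messages, whereas a seed moved by a single base is predicted to recognise a set that overlaps in part. The miR-2284 and miR-2285 families are known mainly from ruminants and have many loci in the cattle genome, and what they regulate in liver is largely unknown.

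Mature sequences were available for 96 of the 117 members, from the study's supplementary list of miRBase sequences, and they were 20 to 24 bases long with a median of 22. The most abundant members are shown first because their near-identity decides how their counts can be read, with the seed in capitals.
bta-miR-2285f: aAAACCUGaaugaacuuuuugg
bta-miR-2285k: aAAACCGGaaugaacuuuuug
bta-miR-2285bn: aAAACCUGaaugaacuuuuugu
bta-miR-2285ce: gAAAACCUgaaugaacuuuuuga
bta-miR-2285cj: aAAACUGGaaugaacuuuuugu
bta-miR-2285t: aGAAUCUGgaugaacuuuuugg
bta-miR-2285q: aAGGACCUgaaugaacuuucugg
Small changes separate the abundant members. bta-miR-2285k differs from bta-miR-2285f at 1 base over 21 compared, bta-miR-2285bn from bta-miR-2285f at 1 of 22, and bta-miR-2285cj from bta-miR-2285k at 1 of 21. Within this set bta-miR-2285f and bta-miR-2285bn share a seed, while the seeds of the others differ.

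A set of low-abundance members is shown because it carried most of the RFI calls described further on. All 5 come from the direct orientation of the family.
bta-miR-2285u: gAAAAACCcgaacgaacuuu
bta-miR-2285l: aAAACCCGcaugaacuuuuuggc
bta-miR-2285bq: aAAACCCGaaugaacuucuuggc
bta-miR-2285ap: aAACCCGGaugaacuuuuuggc
bta-miR-2285n: aAAAACCCgaaugaacuuuugg
Members bta-miR-2285l and bta-miR-2285bq have the same seed and differ at 2 of 23 bases, bta-miR-2285ap differs from bta-miR-2285l at 1 of 22 bases after a start shift of 1, and bta-miR-2285n differs from bta-miR-2285l at 2 of 21 and from bta-miR-2285u at 1 of 19. A further set holds members with differences between RFI groups, breeds or sires.
bta-miR-2285i: aAAACCGGaacgaacuuuuugg
bta-miR-2285ba: aAACCCUGaacgaacuuuuugg
bta-miR-2285g: aAACCUGAacaagcuuuuugg
bta-miR-2285cy: aAAACCAGaaugaacuuuuuug
bta-miR-2285dl-3p: aUAACCUGaaugaacuuuuugg
bta-miR-2285aj-5p: uGAAAAGUucguuuggguuuuu
bta-miR-2285bl: aAAACCUGaaugaacucuuuggu

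The family was diverse in its seeds. Its 96 sequences held 54 different seeds, of which 36 belonged to 1 member each and 18 were shared by 60 members. The seed AAACCUG was carried by 10 members, among them bta-miR-2285f, bta-miR-2285bn, bta-miR-2285cm and bta-miR-2285bl, and also by bta-miR-2312. Next came AAAGUUC and AACCCUG with 6 members each, AAAACCU with 5, and AAAAGUU and AAACCCG with 4 each. AAAAGUU was also the seed of 8 members of the miR-2284 family. Of the 96 members, 51 were near-identical to another member, meaning at most 1 mismatch over at least 18 bases with starts shifted by at most 2, and 14 were near-identical to a miR-2284.

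Family members came in opposite orientations. In 75 sequences the best match to bta-miR-2285f was direct, and in 21, such as bta-miR-2285aj-5p, it was with the reverse complement. The letters GAACUUUU, searched in the printed strand alone, occurred in 47 of 96 members (49.0%), in 0 of 23 miR-2284 sequences and in 1 of 469 other known miRNAs (0.213%). Its reverse complement AAAAGUUC occurred in 9 of 96 members (9.38%), in 11 of 23 miR-2284 sequences (47.8%) and in 0 of 469 others. Of the counts of the 96 members with a sequence, 96.8% came from the direct orientation. Among the 162 precursors, 148 were matched by name to RefSeq, and 98 of these lay within a protein-coding gene, for instance that of bta-miR-2285t within FCGR2B, an Fc receptor gene, and that of bta-miR-2285l within FN1, the fibronectin gene. Strand was not compared, and the positions are of another genome build than the one used for counting. No share over all miRNA precursors was taken, so 98 cannot be read as a trait of the family.

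A member was called expressed in a breed when its counts over the 20 steers totalled at least 10. Angus livers expressed 83 of 117 members (70.9%), Charolais livers 87 (74.4%) and KC livers 86 (73.5%). Over all known miRNAs the same rule gave 51.8%, 53.4% and 55.1%. In all 3 breeds 80 members were expressed, 10 were expressed in some breeds only, and 27 in none. The 10 had mean counts of at most 1.75 per steer in any breed, under the floor. They included bta-miR-2285de, with 0.75 counts in Angus, 1.55 in Charolais and 0.25 in KC.

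Detection was steady across breeds once depth was matched. Each Angus steer had counts for a median of 74.5 members (lowest 67, highest 83), each Charolais steer for 77.5 (56 to 86) and each KC steer for 78 (74 to 86). With every library thinned at random to 1930856 counts, the means were 64.8 ± 4 (SD, n = 20) in Angus, 65 ± 4.43 in Charolais and 65.3 ± 3.77 in KC, differences smaller than the spread between steers. Over the 60 steers, 36 members had a count in every steer and 4 had none in any, namely bta-miR-2285ae, bta-miR-2285cu, bta-miR-2285dm and bta-miR-2285z.

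Although the family has many members, it took a small part of the counts. Summed over members, Angus livers had 0.0798% ± 0.0109 (SD, n = 20) of their counts in the family, Charolais livers 0.0825% ± 0.0098 and KC livers 0.0867% ± 0.0098. The lowest and highest steers were at 0.0487% and 0.0944% for Angus, 0.0648% and 0.1075% for Charolais, and 0.0657% and 0.1031% for KC, so the breeds overlapped. The miR-2284 family, with 31 members, took 0.0664% ± 0.0049, 0.0681% ± 0.0093 and 0.0630% ± 0.0052. The quantifier can count 1 read for several near-identical members, so members' counts are not additive. Members were also linked through chains of near-identical pairs, the biggest linked group holding 31 members. With the highest member alone of each linked group the family share was 0.0494%, 0.0549% and 0.0512%. Members of a chain can differ by more, as bta-miR-2285cj and bta-miR-2285f do at 3 of 22 bases, so this share also leaves out distinct members.

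A few members held most of the counts. Since a read covers a whole miRNA, counts do not scale with length, and members were ranked by CPM. These levels are means over precursors, whose counts can differ. Whether library preparation captured all members equally was not tested, so the ranking is one of counts. bta-miR-2285f, carrying the AAACCUG seed, held 41.4% of the family's counts, bta-miR-2285k held 13.2%, bta-miR-2285t 9.31% and bta-miR-2285bn 5.55%, and the 12 highest members together held 86.1%. At the lower end of these 12, bta-miR-2285cs had a mean of 11.5 CPM, bta-miR-2285da of 7.49 and bta-miR-2285o of 6.68. In the ranking of all miRNAs within a steer, bta-miR-2285f stood at a median rank of 70 (64 to 95), bta-miR-2285k at 106 (81 to 130) and bta-miR-2285t at 114 (87 to 235). Mean levels were at least 100 CPM for 2 members, at least 10 CPM for 10 and at least 1 CPM for 46, and so most members lay near the floor. By seed, the 10 members with AAACCUG held 48.3% of the family's counts.

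**Figure D1:**
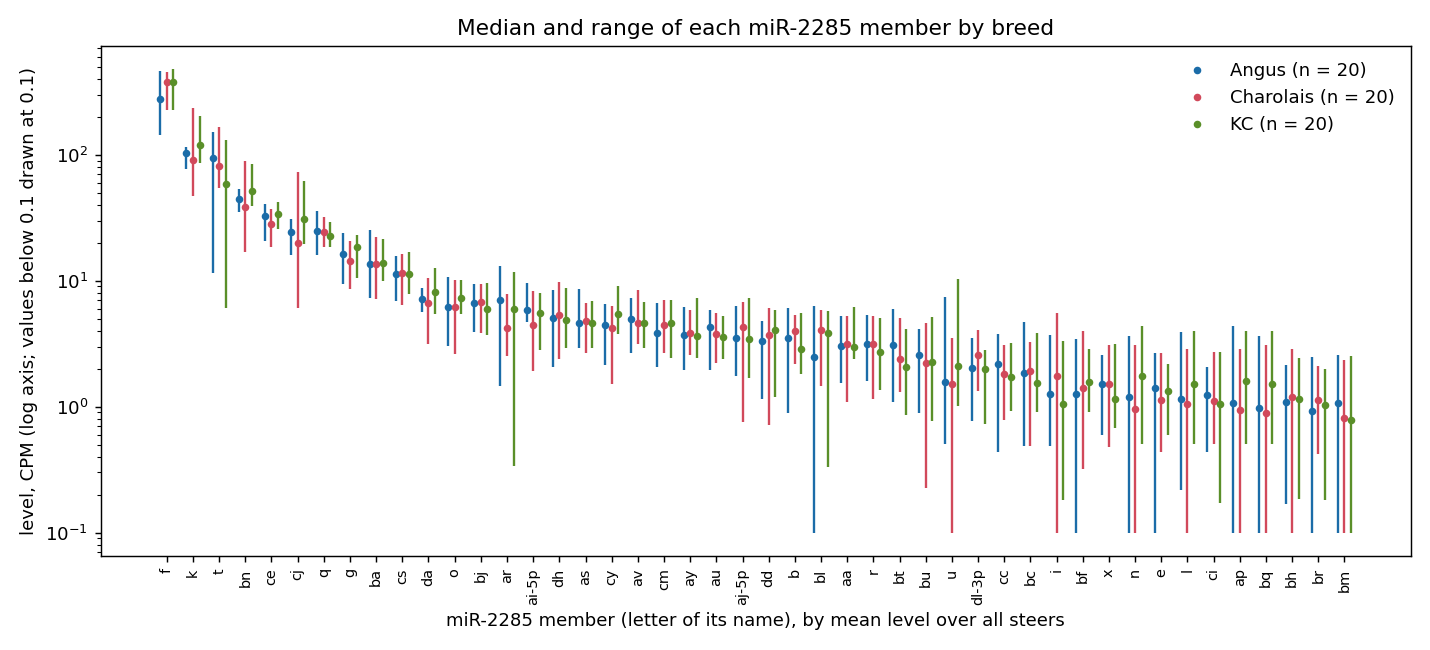
Level in CPM on a log axis of the 46 members with a mean of at least 1 CPM, by breed (points, median; lines, lowest to highest of 20 steers; values below 0.1 CPM drawn at 0.1). The levels fall from bta-miR-2285f at a mean of 342 CPM to bta-miR-2285bm at 1.01 CPM, and the breeds overlap for every member shown.

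The highest members varied little between steers, with some exceptions. bta-miR-2285f ran from 144 to 463 CPM in Angus (median 278), from 225 to 458 in Charolais (median 377) and from 228 to 479 in KC (median 375). The level of bta-miR-2285q ran from 15.9 to 35.6 CPM over the 60 steers with an SD of log2 CPM of 0.24, and that of bta-miR-2285ce from 18.5 to 42.4 CPM with the same SD. bta-miR-2285t was the variable one of the abundant members, with an SD of log2 CPM of 0.96 and a range of 6.09 to 165 CPM. Its 4 lowest steers, 3 KC at 6.09, 8.65 and 11.2 CPM and 1 Angus at 11.6, stood below the next at 29.8 CPM. Among the 47 members tested between breeds the median SD of log2 CPM was 0.53, against 0.43 over all 391 miRNAs tested, and the largest were those of bta-miR-2285bd at 1.34, bta-miR-2285bm at 1.28 and bta-miR-2285bq at 1.23, all with mean levels of at most 1.21 CPM.

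The next comparison asked which members differed between breeds. Of 47 members that reached 1 CPM in at least 20 steers, 6 differed at an adjusted p under 0.05, and over all known miRNAs tested it was 60 of 391 (15.3%), so the members' share lay near the background. The 6 were bta-miR-2285cj (adjusted p = 0.00904, edgeR), bta-miR-2285k (0.00904), bta-miR-2285bn (0.00919), bta-miR-2285cy (0.0226), bta-miR-2285ce (0.0397) and bta-miR-2285i (0.0452). Of the 12 miR-2284 members tested, 4 passed. A member present mostly in 1 breed could pass the filter on low counts through that breed alone.

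Most of the difference lay between KC and Charolais, where 8 members had an adjusted p under 0.05 (46 of 391 miRNAs, 11.8%), 6 of them higher in KC (16 of 391, 4.09%) and 2 lower. The members' median log2 fold change in that comparison was 0.06, beside 0 to 2 decimals over all tested. With a fold change above 1.5 as well, 1 member passed by edgeR, bta-miR-2285i (8 of 391, 2.05%). DESeq2 gave 6 with that fold, bta-miR-2285i and bta-miR-2285t lower in KC and bta-miR-2285l, bta-miR-2285bq, bta-miR-2285ap and bta-miR-2285n higher. The share over all miRNAs by DESeq2 is not given, so the 6 cannot be set against a background. The members higher in KC had low counts close to each other, those of bta-miR-2285ap and bta-miR-2285bq being equal in 42 of 60 steers. They cannot be read as independent. Between KC and Angus, 2 members passed the adjusted p (29 of 391, 7.42%), both higher in KC, and 0 also passed the fold (6 of 391, 1.53%). In Charolais against Angus no member passed (6 of 391, 1.53%), with or without the fold (2 of 391, 0.512%), by edgeR or DESeq2, and an unadjusted p was under 0.05 for 6 members (12.8%) against 69 of 391 miRNAs (17.6%).

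bta-miR-2285k, bta-miR-2285bn and bta-miR-2285cj were higher in KC. The level of bta-miR-2285k ran from 77.4 to 116 CPM in Angus (median 102), from 47.1 to 235 in Charolais (median 90.7) and from 86.3 to 204 in KC (median 119). The groups overlapped, yet 19 of 20 KC steers lay above the Charolais median. Its log2 fold change was 0.40 ± 0.10 (SE; adjusted p = 0.00738, edgeR) against Charolais and 0.32 ± 0.10 (adjusted p = 0.0444) against Angus.

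bta-miR-2285bn ran from 17 to 89.6 CPM in Charolais (median 38.7) and from 39.5 to 84.3 in KC (median 51.5), a log2 fold change of 0.41 ± 0.10 (adjusted p = 0.00562). All 20 KC steers were above the Charolais median. For bta-miR-2285cj the lowest, median and highest levels were 6.03, 20 and 72.8 CPM in Charolais and 19.7, 30.9 and 62.1 in KC, a log2 fold change of 0.53 ± 0.14 (adjusted p = 0.00833), and against Angus (16.1, 24.1 and 31.1 CPM) it was 0.46 ± 0.14 (adjusted p = 0.036).

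These 3 members moved as a unit from steer to steer. After centring on the breed means, Pearson's r over the 60 steers was 0.92 between bta-miR-2285bn and bta-miR-2285cj, 0.90 between bta-miR-2285k and bta-miR-2285cj and 0.88 between bta-miR-2285k and bta-miR-2285bn (Spearman's rho 0.81, 0.74 and 0.70). The same Charolais steer held the highest level of all 3 (235, 89.6 and 72.8 CPM, the next Charolais steers being at 120, 56.6 and 31.6), and 1 other Charolais steer held the lowest of all 3. In KC, too, 1 steer was highest in all 3 and 1 lowest in all 3. Such correlations are given as a description. These sequences differ by 1 or 2 bases, the same library enters each, and whether the same reads do was not tested. bta-miR-2285f also differs by 1 base from bta-miR-2285k and from bta-miR-2285bn, with r of 0.02 and 0.09 to them. Over the 1035 pairs of the 46 members with a mean of at least 1 CPM, the median r was 0.21 for the 34 near-identical pairs and 0.04 for the rest, and 11 pairs reached 0.8, of which 3 were near-identical. bta-miR-2285bj and bta-miR-2285ay (r = 0.87), which share the seed AACCCUG, and bta-miR-2285as and bta-miR-2285ay (0.80) were among the other pairs.

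Smaller differences were seen in the remaining members with an adjusted p under 0.05 between KC and Charolais. bta-miR-2285ce was at 18.5, 28.3 and 37.3 CPM (lowest, median, highest) in Charolais and 25.6, 34.1 and 42.4 in KC, a log2 fold change of 0.23 ± 0.07 (adjusted p = 0.022). The levels of bta-miR-2285g (log2 fold change 0.30 ± 0.10, adjusted p = 0.0468) and bta-miR-2285cy (0.40 ± 0.12, adjusted p = 0.0149) were also higher in KC, with 16 and 18 of 20 KC steers above the Charolais median. In contrast, bta-miR-2285i ran from 0 to 5.57 CPM in Charolais (median 1.76) and from 0.181 to 3.32 in KC (median 1.06), lower in KC by a log2 fold change of -0.86 ± 0.27 (adjusted p = 0.022). bta-miR-2285dl-3p was lower in KC as well (log2 fold change -0.46 ± 0.16, adjusted p = 0.046). Its median was 2.59 CPM in Charolais and 1.98 in KC. bta-miR-2285i shares its seed AAACCGG with bta-miR-2285k, whose direction was opposite. bta-miR-2285f did not pass in any pair (adjusted p = 0.117 for its log2 fold change of 0.27 ± 0.10 in Charolais against Angus).

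**Figure D2:**
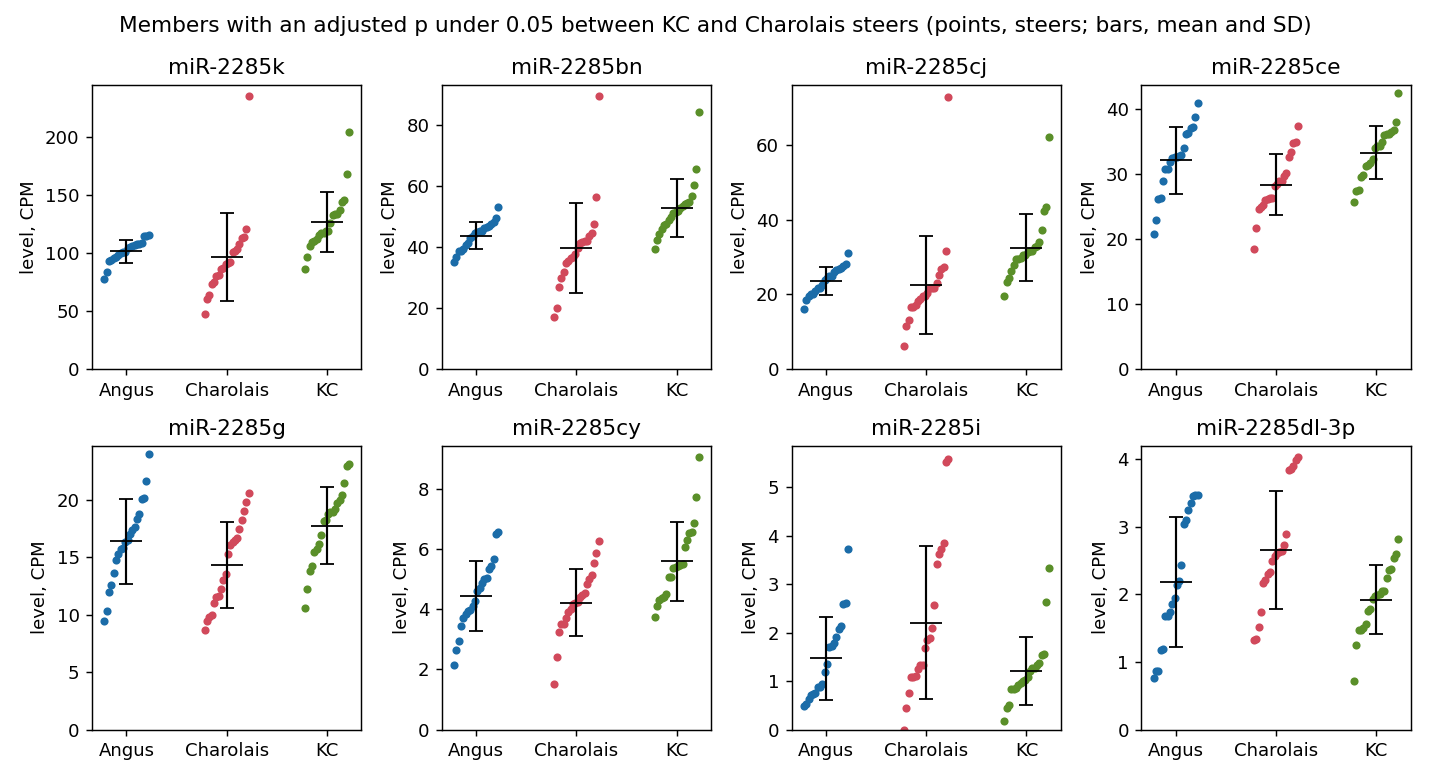
Level in CPM in each steer of the 8 members with an adjusted p under 0.05 between KC and Charolais, by breed (points, 20 steers a breed; bars, mean and SD). In bta-miR-2285k, bta-miR-2285bn and bta-miR-2285cj 1 Charolais steer, at 235, 89.6 and 72.8 CPM, stands above all other steers.

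Breed comparisons used steers as replicates, although steers of 1 sire are related. With counts summed per sire, giving 23 libraries, 0 members passed for breeds, against 6 with steers, on fewer libraries. The log2 fold changes between KC and Charolais were then 0.35 for bta-miR-2285k, 0.34 for bta-miR-2285bn, 0.45 for bta-miR-2285cj and 0.22 for bta-miR-2285ce, in place of 0.40, 0.41, 0.53 and 0.23. In the liver marker lists, the summed leukocyte markers had medians of 3780 CPM in Angus, 3689 in Charolais and 3819 in KC, and the mesenchymal markers 165609, 173784 and 169114 CPM, with overlapping ranges. No marker of the hepatocyte, erythroid, leukocyte, mesenchymal, endothelial or biliary lists had an adjusted p under 0.05 between KC and Charolais, while 2 of 4 hepatocyte markers and 1 of 5 leukocyte markers passed in the test over the 3 breeds. The part of cell composition in the breed differences was not tested. In bulk liver, fewer cells of a type and less miRNA per cell cannot be told apart.

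Sires within breeds were compared next. At an adjusted p under 0.05, 2 of 47 members differed between sires of the same breed, against 6 of 391 over all known miRNAs (1.53%). They were bta-miR-2285aj-5p (adjusted p = 0.00431, edgeR) and bta-miR-2285bl (adjusted p = 0.00545). bta-miR-2285aj-5p, of the reverse orientation, was at 0.76 and 1.29 CPM in the 2 steers of 1 Charolais sire, and at 3.01 to 6.82 CPM (median 5.06) in the 8 steers of the Charolais sire with the most steers. These steers did not overlap. Another Charolais sire had 4 steers at 2.5 to 3.44 CPM. Both steers with the lowest levels belonged to the high-RFI group.

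bta-miR-2285bl, which carries the seed of bta-miR-2285f, ran from 0 to 2.65 CPM (median 1.77) in the 6 steers of 1 Angus sire and from 1.15 to 6.28 CPM (median 4.81) in the 5 steers of another. All 4 steers of 1 Charolais sire lay between 4.97 and 5.55 CPM. bta-miR-2285t, the variable abundant member, had an unadjusted p of 0.0024 between sires and an adjusted p of 0.104 by edgeR, and did not pass. The fit gave no estimate of spread for the sires with 1 steer, 2 in Angus and 9 in KC.

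**Figure D3:**
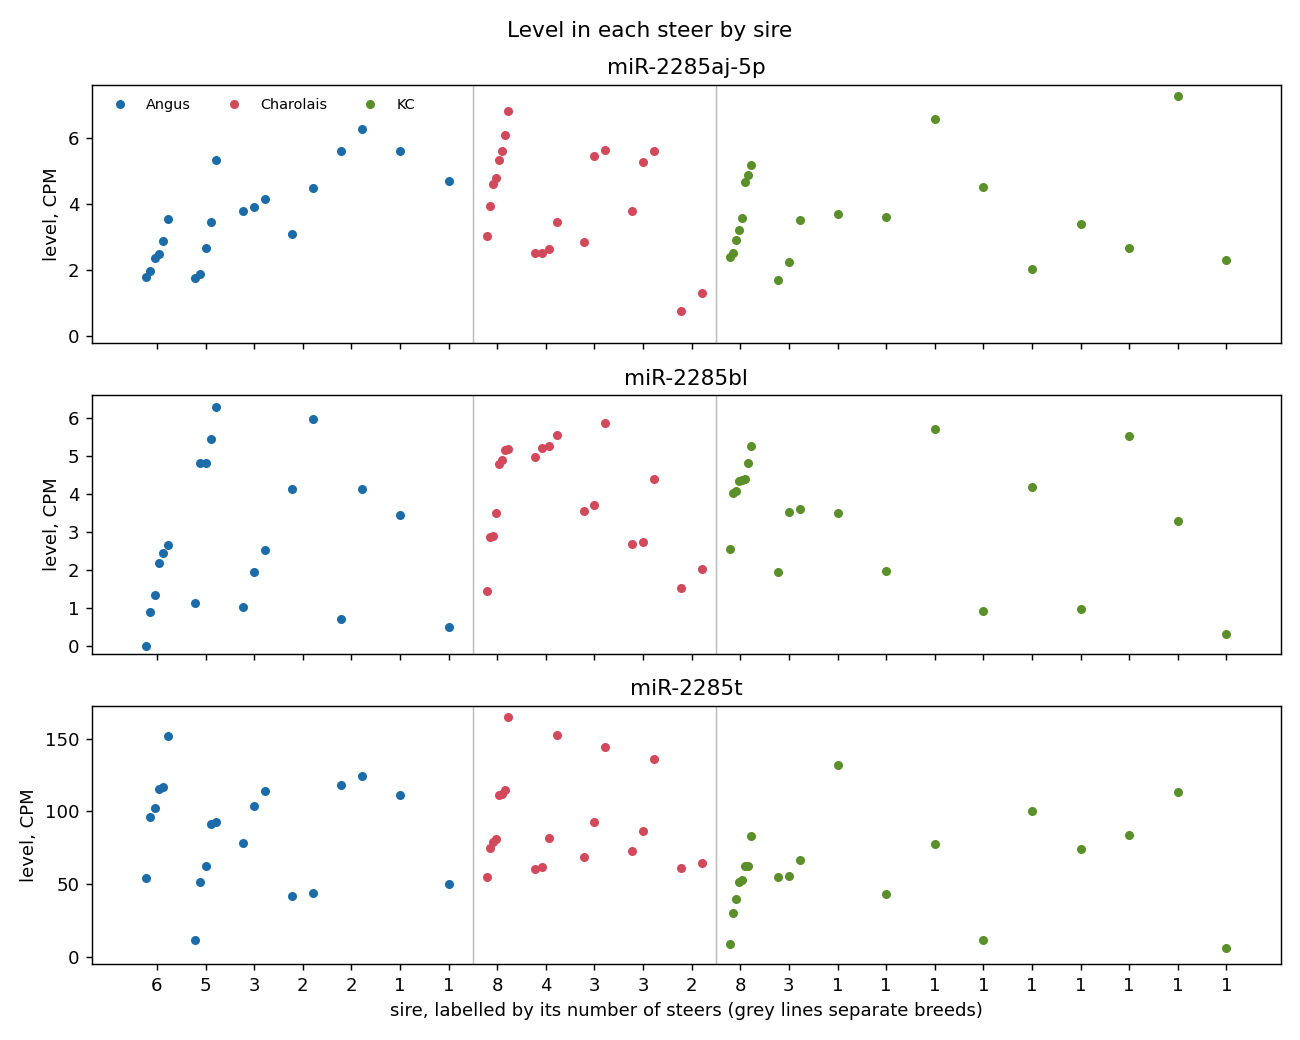
Level in CPM in each steer of bta-miR-2285aj-5p, bta-miR-2285bl and bta-miR-2285t, by sire (points, steers; numbers under the axis, steers per sire; colours, breeds). The 2 steers of 1 Charolais sire are the lowest in bta-miR-2285aj-5p, at 0.76 and 1.29 CPM.

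In the comparison of low-RFI with high-RFI steers within each breed, a member was called at an unadjusted p under 0.05 and a fold change above 1.5. None of the miRNAs tested passed an adjusted p of 0.05 in any breed by edgeR, and the smallest adjusted p among members was 0.76 for Angus, 0.752 for Charolais and 0.993 for KC. In Angus 5 of 45 members were called (9 of 373 miRNAs, 2.41%), all higher in low-RFI steers (6 of 373 miRNAs, 1.61%). In Charolais 2 of 41 were called (7 of 373, 1.88%), both lower in low-RFI steers (4 of 373, 1.07%). In KC 0 of 47 were called (7 of 377, 1.86%), and an unadjusted p was under 0.05 for 1 member (2.13%) against 15 of 377 miRNAs (3.98%). The members' median log2 fold changes were 0.02, -0.09 and -0.02, beside 0.01, 0.00 and 0.01 over all miRNAs tested.

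In Angus bta-miR-2285u had the smallest p of all 373 miRNAs. It ran from 1.49 to 7.43 CPM (median 4.59) in low-RFI steers and from 0.505 to 3.83 CPM (median 1.48) in high-RFI steers. The groups overlapped, but all 6 low-RFI values exceeded the median of the high-RFI group. Its log2 fold change was 1.48 ± 0.45 (SE), with p = 0.00461 and an adjusted p of 0.76 by edgeR and p = 0.0216 by the exact two-sided permutation test of 6 against 6 steers over 924 relabelings.

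The other 4 called members, bta-miR-2285l, bta-miR-2285bq, bta-miR-2285ap and bta-miR-2285n, lay close to the floor. bta-miR-2285l was at 0.895, 1.75 and 3.85 CPM (lowest, median, highest) in low-RFI and at 0.435, 0.738 and 1.47 in high-RFI Angus steers, a log2 fold change of 1.15 ± 0.40 (p = 0.0108 by edgeR, exact permutation p = 0.0216). For bta-miR-2285bq the values were 0.895, 1.33 and 3.61 against 0, 0.582 and 1.47 CPM. The log2 fold changes of bta-miR-2285bq, bta-miR-2285ap and bta-miR-2285n were 1.44 ± 0.51, 1.36 ± 0.50 and 0.94 ± 0.41, with exact permutation p of 0.0281, 0.0238 and 0.0498. Between 1 and 2 of 6 low-RFI and 3 or 4 of 6 high-RFI steers had at most 3 counts of each of these 4.

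The 4 members had low counts that were close to each other. bta-miR-2285bq and bta-miR-2285ap had equal rounded counts in 42 of 60 steers, bta-miR-2285l and bta-miR-2285bq in 35, and bta-miR-2285l and bta-miR-2285ap in 32, while bta-miR-2285n equalled each of them in 17 to 21. In the 12 Angus steers of the comparison the equal counts of those 3 pairs were 7, 4 and 4 with differences of at most 2 counts, and bta-miR-2285n equalled the others in 3 to 4 steers and differed by up to 4 counts. Pearson's r after centring on breed means was 0.94 between bta-miR-2285l and bta-miR-2285bq and 0.93 between bta-miR-2285ap and bta-miR-2285bq. bta-miR-2285u had a lower r of 0.67 to 0.71 to these 4, above the median of 0.21 for near-identical pairs. It is near-identical to bta-miR-2285n, at 1 mismatch over 19 bases. The quantifier can count 1 read for several such members. Whether the 4 calls and that of bta-miR-2285u rest on the same reads was not tested, so they cannot be read as independent calls. In Charolais these 4 did not reach the filter and were not tested, and in KC their log2 fold changes lay between -0.08 and 0.18 with SEs of 0.31 to 0.33.

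Without Angus low-RFI replicate 3 the 5 calls became 1, bta-miR-2285u, whose log2 fold change was then 1.51, and bta-miR-2285l, bta-miR-2285ap and bta-miR-2285n had log2 fold changes of 0.79, 1.01 and 0.56 that no longer met the rule. Without Angus low-RFI replicate 5, 3 calls were made. Asking for at least 10 counts in every steer removed all 5 members from the test.

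Sire and RFI group overlapped little among the Angus steers, since 2 of 6 sires had steers in both groups. In a fit with sire as a block, added after seeing the data, the log2 fold changes were 1.02 ± 0.70 for bta-miR-2285u, 0.98 ± 0.76 for bta-miR-2285l, 0.63 ± 0.94 for bta-miR-2285ap, 0.53 ± 0.92 for bta-miR-2285bq and 0.24 ± 0.80 for bta-miR-2285n, and none of these 5 was called (adjusted p of 0.898 to 0.993, edgeR). The sire with 5 steers, 1 of them low-RFI and 1 high-RFI, had bta-miR-2285u at 1.09 to 1.87 CPM in all 5. In the other sire with both groups, 6 steers with 1 low-RFI and 2 high-RFI, it ran from 0.505 to 5.32 CPM (median 4.12). The part of sire in the Angus calls was not tested beyond this fit.

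The abundant bta-miR-2285ce also had an unadjusted p under 0.05 in Angus, without reaching the fold asked for. It was at 32.6, 37.1 and 40.8 CPM (lowest, median, highest) in low-RFI steers and at 26.2, 31.6 and 32.6 in high-RFI steers, so the groups overlapped only near 32.6 CPM. Its log2 fold change was 0.30 ± 0.11, with p = 0.0135 and an adjusted p of 0.76 by edgeR and an exact two-sided permutation p of 0.00649. With sire as a block it was 0.20 ± 0.20 (adjusted p = 0.898, edgeR). In Charolais the log2 fold change of bta-miR-2285ce was -0.05 ± 0.14.

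**Figure D4:**
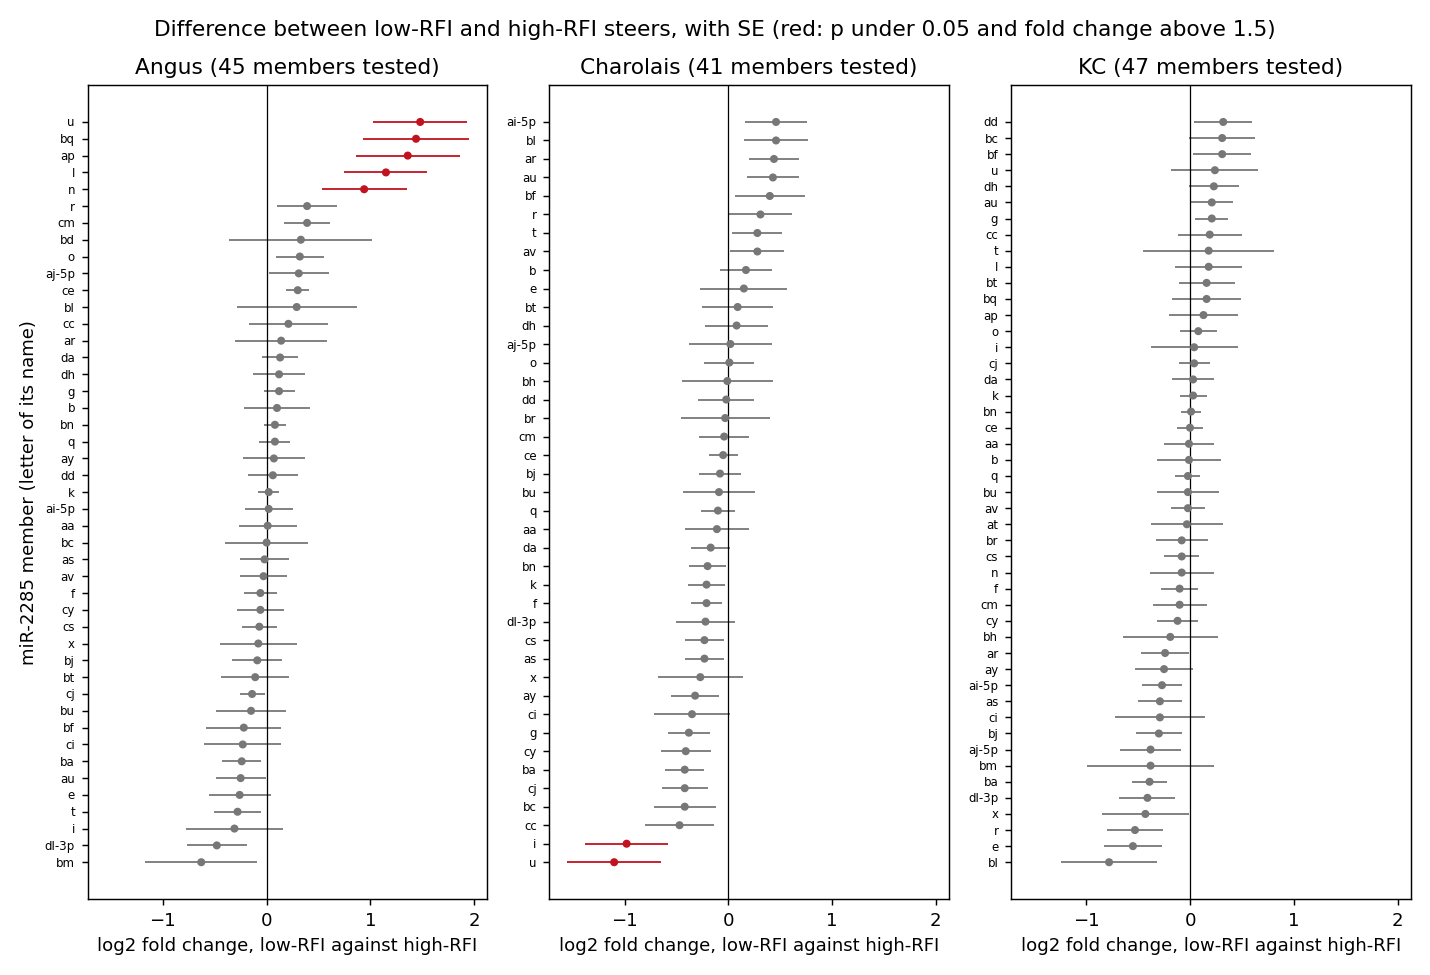
Log2 fold change of each tested member between low-RFI and high-RFI steers (above 0, higher in low-RFI), by breed, with SE, ordered within each breed (red, p under 0.05 and fold change above 1.5). The 5 called members in Angus are set off at 0.94 to 1.48 from the other members of that breed, and the 2 called in Charolais lie at -0.98 and -1.10.

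In Charolais the called members were bta-miR-2285u and bta-miR-2285i. bta-miR-2285u was at 0, 1 and 1.53 CPM (lowest, median, highest) in the low-RFI group and at 1.28, 1.67 and 3.27 CPM in the high-RFI group, a log2 fold change of -1.10 ± 0.45 (p = 0.0247 by edgeR, exact permutation p = 0.0433). bta-miR-2285i was at 0.753, 1.47 and 2.09 CPM in low-RFI and at 1.11, 3.14 and 5.57 in high-RFI steers, a log2 fold change of -0.98 ± 0.40 (p = 0.0262 by edgeR, exact permutation p = 0.0649). None of the 6 low-RFI steers exceeded the high-RFI median of either member, although the groups overlapped. Of the 6 high-RFI steers, 4 were of 1 sire, whose 8 steers had bta-miR-2285i at a median of 3.56 CPM (0.753 to 5.57), and the other 2 high-RFI steers, of another sire, were at 1.11 and 1.33 CPM, within the low-RFI range. The block fit gave log2 fold changes of -2.27 ± 0.79 for bta-miR-2285i and -6.08 ± 2.08 for bta-miR-2285u (adjusted p = 0.177 for both, edgeR), from the 1 sire with steers in both groups, of which 1 steer was low-RFI (replicate 1). That low-RFI steer was at 0 CPM of bta-miR-2285u. The value of -6.08 thus rests on 1 steer without a count, and its size is not reliable. Leaving out steers in turn gave 0 to 2 calls, with 0 without high-RFI replicate 2 and 1 without high-RFI replicate 3 or without low-RFI replicate 1, 3 or 6. In KC, where leaving out steers gave 0 to 3 calls, the log2 fold changes of these members were 0.24 ± 0.42 for bta-miR-2285u and 0.04 ± 0.42 for bta-miR-2285i.

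bta-miR-2285u thus had opposite signs in Angus and Charolais. The test of the interaction between RFI group and breed gave it an adjusted p of 0.614 by edgeR. Unadjusted, 4 of 55 members were under 0.05 in that test (17 of 422 miRNAs, 4.03%), namely bta-miR-2285u, bta-miR-2285bq, bta-miR-2285l and bta-miR-2285g. bta-miR-2285g, at a higher level, had medians of 17.9 and 17.5 CPM in low-RFI and high-RFI Angus, 10.5 and 16.6 in Charolais and 18.5 and 16.6 in KC.

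Across the 36 steers with breed in the model, 2 of 55 members had an unadjusted p under 0.05, beside 13 of 422 miRNAs (3.08%), both lower in low-RFI steers. In Angus bta-miR-2285ba was at 9.62, 13.9 and 18.3 CPM (lowest, median, highest) in low-RFI steers against 13, 15.3 and 25.2. In Charolais the values were 7.16, 11.9 and 14.1 against 10.3, 15.6 and 22.4, and in KC 9.98, 12.6 and 14.5 against 10, 18 and 21.4. The medians were lower in low-RFI steers in each breed, with overlap in each. Over the breeds its log2 fold change was -0.35 ± 0.11 (adjusted p = 0.329, edgeR), and 1 of 18 low-RFI steers was above the median of the high-RFI steers. Within breeds the log2 fold changes of bta-miR-2285ba were -0.24 ± 0.19 for Angus, -0.42 ± 0.19 for Charolais and -0.39 ± 0.17 for KC. bta-miR-2285dl-3p had a log2 fold change of -0.37 ± 0.15 (adjusted p = 0.966). Blocking on sire over the 36 steers gave log2 fold changes of -0.50 ± 0.20 for bta-miR-2285ba (adjusted p = 0.473, edgeR) and -0.02 ± 0.29 for bta-miR-2285dl-3p (adjusted p = 0.999), with 4 of 20 sires having steers in both groups.

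**Figure D5:**
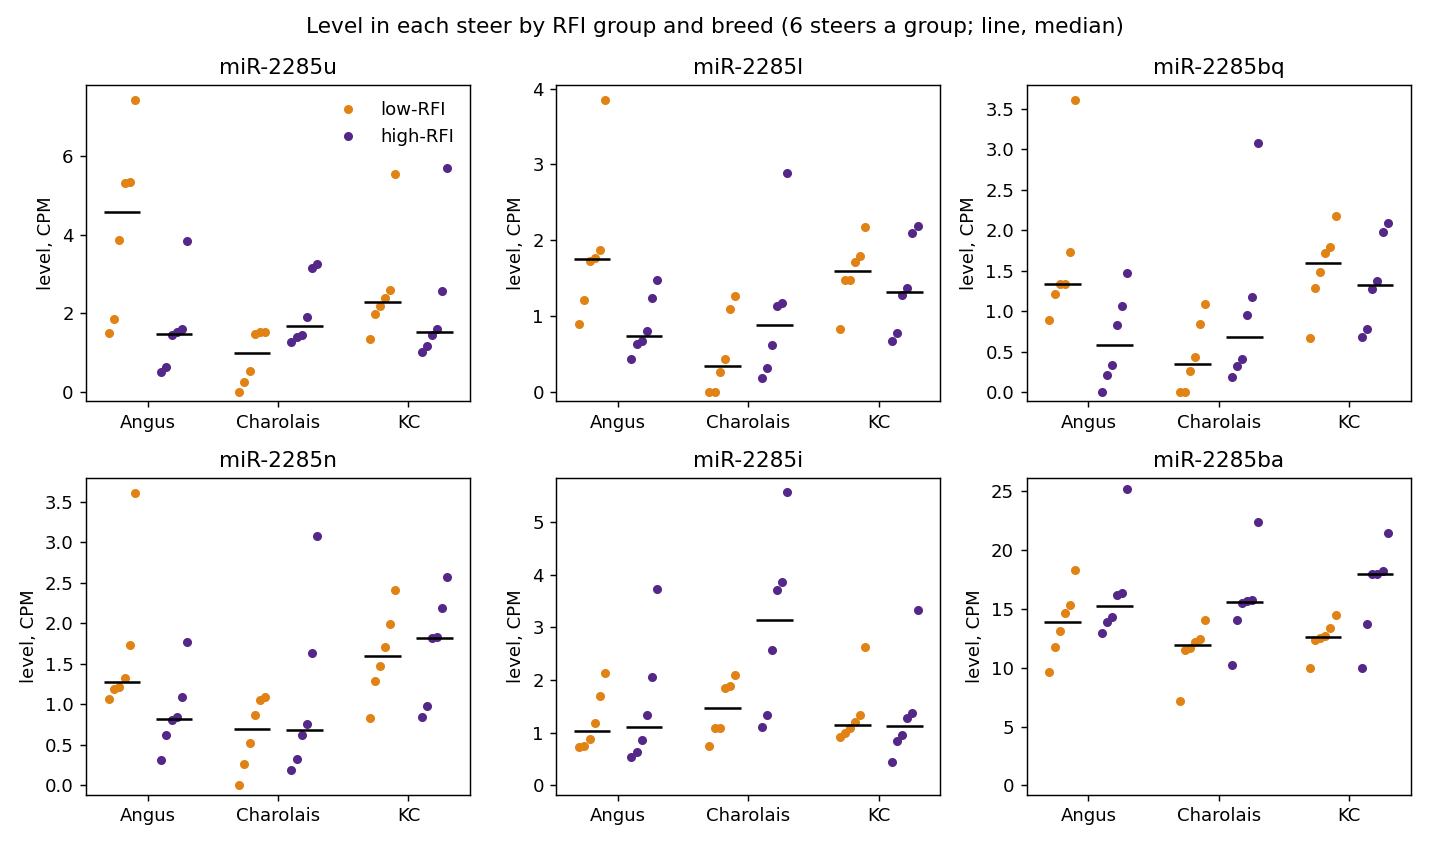
Level in CPM in each steer of 6 members by breed and RFI group (points, 6 steers a group; lines, median). In Angus bta-miR-2285u, bta-miR-2285l and bta-miR-2285bq have medians of 4.59, 1.75 and 1.33 CPM in low-RFI steers and 1.48, 0.738 and 0.582 in high-RFI steers, and bta-miR-2285ba is lower in low-RFI steers of each breed by its medians.

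By sign alone, 10 of 39 members tested in all 3 breeds (25.6%) were lower in low-RFI steers in each breed and 2 (5.13%) higher, beside 36 (10%) and 50 (13.9%) of the 360 miRNAs tested in all 3. Members near-identical to each other are counted separately here, and no test was made of these shares. Among the members the study names, bta-miR-2285bg was detected in 54 steers at a mean of 0.684 CPM, mostly under the floor, and its RFI differences within breeds were not tested because it failed the filter. bta-miR-2285ai-5p, at 5.53 CPM on average, had log2 fold changes of 0.02 ± 0.23 for Angus, 0.46 ± 0.30 for Charolais and -0.27 ± 0.19 for KC. The marker sums between RFI groups overlapped. For Angus the summed erythroid markers had a median of 11793 CPM (6539 to 12936) in the low-RFI group and of 8395 CPM (5627 to 13041) in the high-RFI group, and the leukocyte markers of 3836 (3742 to 4492) and 3639 CPM (3274 to 3851). Their part in the Angus calls was not tested.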

How the data were processed

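Small RNA of 60 livers was sequenced and counted. The authors clipped adapters with cutadapt 1.16, kept reads by length, removed other small RNAs, aligned with Bowtie 1.1.1 to UMD3.1, counted known miRBase miRNAs with miRDeep2, and deposited unnormalized counts per mature miRNA on each precursor.

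Pairs listed for all 3 breeds were averaged over precursors. Counts were rounded and tested by edgeR's quasi-likelihood method after TMM normalization (R 4.3.3, edgeR 4.0.16, limma 3.58.1), on miRNAs at 1 CPM or more in at least 20 of 60 steers (breeds, sires) or 6 steers (RFI). Adjusted p-values follow Benjamini and Hochberg over all miRNAs tested. SE is the log2 fold change over the square root of F. CPM used TMM factors over the 60 steers, and log2 CPM a prior count of 0.5. Mature sequences came from the supplementary list. Python 3.11.15, numpy 2.4.6, pandas 2.3.3, scipy 1.17.1, matplotlib 3.10.9 and DESeq2 1.42.0 (alternatives) were also used. The fits were tested on simulated data.

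Members named are the 12 highest by mean CPM, those called between breeds, RFI groups or sires, those with an unadjusted p under 0.05 for RFI across breeds or in the interaction, the 3 most variable, and 5 the study lists. Pairs and genes mentioned outside this rule were chosen after their values were seen. Members and lists were chosen with earlier results of these data known. Predicted miRNAs were not analysed here.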

Additional observations from a re-analysis of the deposited data

Results flagged for a closer look

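The difference between RFI groups varied between breeds for 4 members by the interaction test, at unadjusted p of 0.00437 for bta-miR-2285u, 0.0209 for bta-miR-2285bq, 0.0356 for bta-miR-2285l and 0.0429 for bta-miR-2285g. None of these passed after adjustment over the 422 miRNAs tested.

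For KC alone, 23 further pairs of a member and a precursor were listed, for 13 members, and they were left out of all comparisons. In 10 members the highest of these pairs had a mean above 3 counts over the 20 KC steers. The mean counts were 3203.95 for bta-miR-2285f (1901.5 on the pairs of all breeds), 2686.25 for bta-miR-2285av on a miR-2284 precursor (24.5), 75.55 for bta-miR-2285by on a miR-2284ab precursor (1.9), 36.75 for bta-miR-2285u (14.9), 31.0 for bta-miR-2285bd (4.3), 25.3 for bta-miR-2285aw (1.8), 19.25 for bta-miR-2285au (19.2), 18.65 for bta-miR-2285bg (3.5), 18.55 for bta-miR-2285co (2.05) and 11.1 for bta-miR-2285ad (5.2). Whether Angus and Charolais steers hold such reads was not tested, since their files list none of these pairs.

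The family share and the log2 CPM of members called or differing between breeds were checked within the groups of 6 or 8 steers of 1 breed and RFI group. In 6 of 121 checks the highest or lowest steer stood far from the others, and chance gives about 1 in 20. Charolais low-RFI replicate 1 was lowest in bta-miR-2285ba at 7.16 CPM (others 11.5 to 14.1), in bta-miR-2285cj at 6.03 (16.5 to 20.3) and in bta-miR-2285cy at 1.51 (3.26 to 4.23). Angus high-RFI replicate 3 was highest in bta-miR-2285ba at 25.2 (13 to 16.4), KC low-RFI replicate 3 highest in bta-miR-2285i at 2.63 (0.92 to 1.34) and Angus high-RFI replicate 6 lowest in bta-miR-2285k at 77.4 (101 to 114). The Charolais steer without an RFI group that was highest in bta-miR-2285k, bta-miR-2285bn and bta-miR-2285cj did not pass this criterion on the log2 scale in its group of 8.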

How the results depend on the processing

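No direction reversed in the 226 alternative values of 19 member results, of which 173 kept their call and 53 lost it, and in 13 further alternatives, for 6 members, the member was not tested. These 19 were picked because they had passed a test in the same steers. Their unchanged directions therefore say little about other steers. Asking for 1 CPM in 10 of 20 steers left 45 members expressed in Angus, 43 in Charolais, 47 in KC and 42 in all breeds. The family share was 0.1429%, 0.1462% and 0.1640% with precursor counts summed, and 0.1068% in KC with all deposited pairs. With 1 member per linked group it was 0.0494%, 0.0549% and 0.0512%. With all deposited pairs 15 members differed between breeds and, with the fold, 8 in KC against Angus (0 in the report) and 12 in KC against Charolais (1 in the report), where extra pairs were listed for KC only. With counts summed per sire 0 differed between breeds and 0 between KC and Charolais, on 23 libraries and with log2 fold changes such as 0.35 for bta-miR-2285k in place of 0.40. KC against Charolais with the fold gave 6 by DESeq2, 5 without a filter, 2 with summed precursors and 2 after thinning, and Charolais against Angus 1 without a filter. Shares over all miRNAs are not given for these alternative breed runs. Asking for at least 10 counts in every steer gave 0 RFI calls in Angus, 0 in Charolais and 0 sire calls, and 1 fit of 36 steers gave 1 in Charolais. Leaving out 1 steer gave 1 to 5 calls in Angus, 0 to 2 in Charolais and 0 to 3 in KC (3 without low-RFI replicate 4, 2 without low-RFI replicate 2, and 1 without low-RFI replicate 1 or high-RFI replicate 1, 5 or 6). Without a filter 4 members had p under 0.05 across breeds, and the likelihood-ratio test gave 8 in the interaction. Shares over all miRNAs are not given for these alternative RFI runs either, so their counts cannot be set against a background. With sire as a block, chosen after seeing the data, 1 member was called in Angus, 8 in Charolais, 2 in KC and 4 across breeds (2 of 6, 1 of 5, 1 of 9 and 4 of 20 sires had both groups). Over all miRNAs tested, the same fits called 11 of 373 in Angus, 48 of 373 in Charolais, 17 of 377 in KC and 38 of 422 across breeds. Counting Angus members with equal counts in 10 of 12 steers once, also chosen after seeing the data, could change nothing, since no pair reached that. No paired analysis was possible because no number in the labels ties a low-RFI to a high-RFI steer, so shared sires served as the block. Depth limits members under 1 CPM.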

Other observations

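In 24 members with several precursors listed for all breeds, the deposited counts per precursor differed for some. The precursors of bta-miR-2285f had mean counts of 482.88 and 2582.63, those of bta-miR-2285g 42.83 to 86.75, and those of bta-miR-2285o 16.67 to 34.33, whereas bta-miR-2285ba had equal counts on both in all 60 steers. The reported level of bta-miR-2285f is the mean of its 2 precursors.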
